A study of Homo sapiens with 6 samples.

Results

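The Wnt, BMP, Notch and Hedgehog pathways are the signalling routes by which embryonic cells, the neural crest among them, are assigned their fates. SH-SY5Y, a human neuroblastoma cell line of sympathetic (neural crest) origin that is used as a model of dopaminergic neurons, still expresses parts of each. Members were taken by gene name, as the Wnt, Frizzled, SFRP, Dickkopf, LRP5, LRP6, AXIN, LEF1, TCF7 and TLE names, the BMP, SMAD, SMURF, TGFB, inhibin, activin receptor, GDF and ID names, the NOTCH, HES, HEY, JAG and DLL names, and the GLI, PTCH and SMO names, with antisense genes left out. Of the 4101 genes in the deposited table, 23 are members. These are 8 Wnt genes, 9 genes of BMP, TGF-beta and activin signalling, 5 Notch genes and 1 Hedgehog gene.

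RNA was sequenced from wild-type SH-SY5Y cells treated with 2 mM methamphetamine (METH), a psychostimulant, for 24 h and from cells given the same volume of PBS, with 3 libraries in each group. The PBS columns are numbered 10, 11 and 12 and the METH columns 1 to 3, and libraries are named after them. Whether the 3 libraries of a group come from separate cultures is not stated beyond their being triplicates. The p-values therefore set the METH minus PBS difference against the spread between these libraries, which may be technical. All cells are of a single line.

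Expression is given in CPM, the read count of a gene scaled to a common library total, which is not corrected for gene length. A gene counts as called up-regulated or down-regulated when its limma adjusted p-value is under 0.1, on log2(CPM + 0.1), with adjustment over the 4101 genes. The deposited table holds only genes whose entry in its column of unadjusted p-values, from the authors' own comparison of these libraries, is under 0.1, so most genes in it pass. Of all 4101 genes, 69.1% were called, 33.3% up-regulated and 35.8% down-regulated. In 64.0% of the genes the METH and PBS libraries did not overlap. The members' counts are read against these shares. Signalling genes outside the table, such as the Wnt ligands, were not analysed here.

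Wnt proteins bind Frizzled receptors and the co-receptors LRP5 and LRP6. This stabilises beta-catenin, which joins the TCF and LEF proteins on DNA and displaces the TLE (Groucho) co-repressors. BMPs act through SMAD1 and SMAD5, and TGF-beta and activin through SMAD2 and SMAD3. The ID genes are immediate targets of BMP, and SMAD6 is an inhibitor that BMP itself induces. Notch receptors, cut after contact with a DLL or JAG ligand on the neighbouring cell, release a fragment that joins the DNA-binding protein RBPJ and turns on HES and HEY repressor genes. Hedgehog ligands act through PTCH and SMO on the GLI transcription factors.

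Of the 23 members, the METH-treatment group had 8 up-regulated and 7 down-regulated, and the remaining 8 were not called. The up-regulated genes were ID1, TLE1, DKK1, DLL3, ID3, DKK3, FZD7 and GDF11. The down-regulated genes were BMP2, GDF10, TLE3, INHBA, SMAD6, TCF7 and SMAD3. The called share of 65.2% lies near the 69.1% of the table, and the libraries did not overlap in 13 members (56.5%). The median absolute log2 fold change of the members was 0.64, against 0.73 for all genes of the table, so the members as a set did not stand out from it. By pathway, 6 of 8 Wnt genes, 8 of 9 BMP and TGF-beta genes, 1 of 5 Notch genes and 0 of 1 Hedgehog genes were called. When the p-values were adjusted over 20000 genes, with every gene outside the table taken as not passing, 4 members were still called, namely TLE1 upwards and BMP2, GDF10 and TLE3 downwards. That adjustment called 10.0% of the table.

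**Figure D1:**
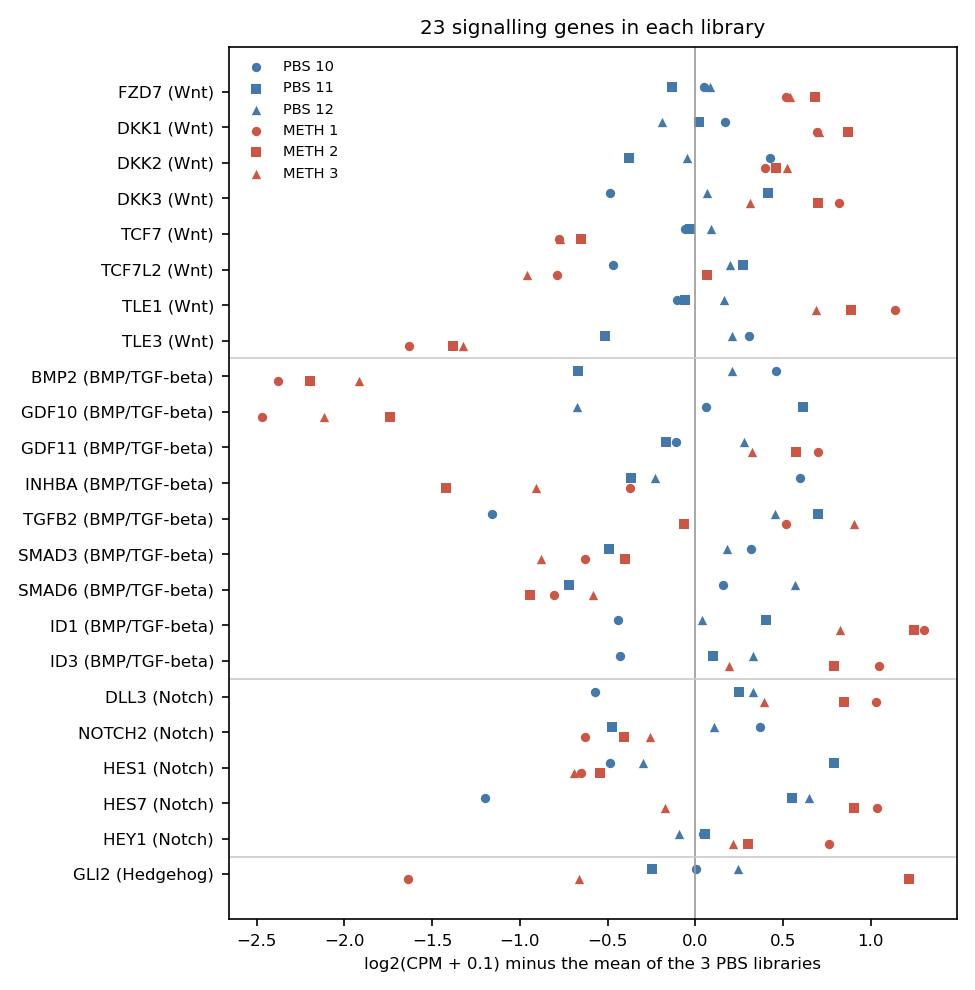
Level of each of the 23 members in each library, on the x axis as log2(CPM + 0.1) minus the mean of the 3 PBS libraries, with members on the y axis by pathway. Blue points are PBS libraries and red points METH libraries, with a symbol for each library, and in 13 of the 23 members the colours do not overlap.

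**Figure D2:**
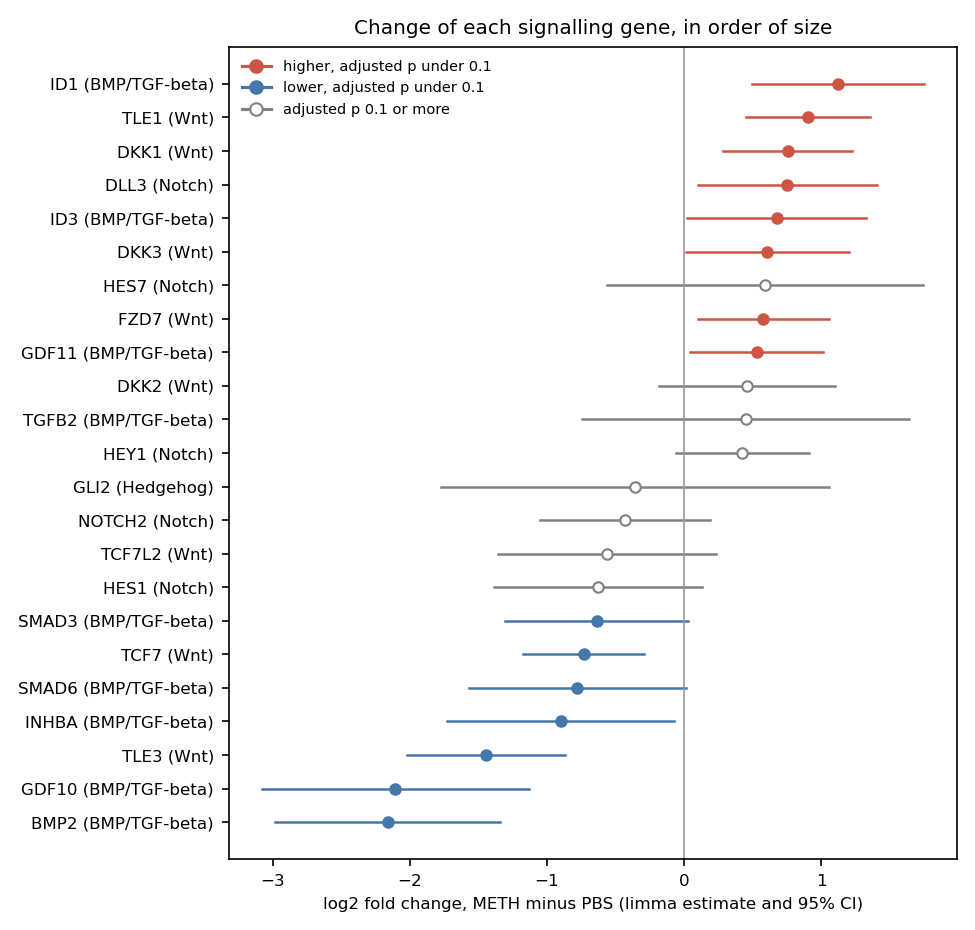
The log2 fold change of each member (x axis, METH minus PBS, limma on log2(CPM + 0.1)) with its 95% confidence interval, ordered from the largest increase to the largest decrease. Red filled points are the 8 genes called up-regulated, blue filled points the 7 called down-regulated and open grey points the 8 not called, and BMP2 and GDF10 have the largest decreases on this scale.

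Promoter sequences are shown for SMAD6 and the ID genes, which are BMP targets, and for HES1, a Notch target. The RefSeq promoter table (GRCh38.p14, from 250 bases before to 50 bases after each transcription start) matched 17 of the 23 members with 27 windows, and FZD7, DKK2, DKK3, BMP2, DLL3 and HEY1 had no match. Each sequence below is the 150 bases just before the start, 5′ to 3′ on the gene's strand. They lie at chr15:66702086-66702235 for SMAD6 (plus strand), chr3:194135998-194136147 for HES1 (plus strand), chr20:31605139-31605288 for ID1 (plus strand) and chr1:23559502-23559651 for ID3 (minus strand). Capitals mark the SMAD-binding palindrome GTCTAGAC in SMAD6 and the RBPJ core TGGGAA in HES1. In ID3 they mark CGTCA, the reverse complement of the short cAMP-response core TGACG.
SMAD6: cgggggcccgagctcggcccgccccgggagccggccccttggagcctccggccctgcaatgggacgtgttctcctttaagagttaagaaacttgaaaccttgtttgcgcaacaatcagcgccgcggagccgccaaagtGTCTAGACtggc
HES1: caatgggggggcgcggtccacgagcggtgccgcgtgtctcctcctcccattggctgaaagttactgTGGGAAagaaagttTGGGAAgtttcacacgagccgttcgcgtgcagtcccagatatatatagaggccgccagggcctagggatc
ID1: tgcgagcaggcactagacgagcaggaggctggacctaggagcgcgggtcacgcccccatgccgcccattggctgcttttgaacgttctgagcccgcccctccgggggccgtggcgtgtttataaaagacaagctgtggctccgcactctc
ID3: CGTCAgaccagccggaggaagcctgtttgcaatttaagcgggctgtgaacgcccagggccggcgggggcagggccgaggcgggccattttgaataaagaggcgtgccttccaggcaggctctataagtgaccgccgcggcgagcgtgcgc

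Each motif was searched on both strands. GTCTAGAC occurs in 0.202% of all 35116 promoter windows and, among the members, only in that of SMAD6. TGGGAA occurs in 24.0% of all windows and in 3 of the 27 member windows (TCF7, SMAD3 and HES1), and HES1 holds 2 copies. The letters GGCGCC, a core bound by SMAD1 and SMAD5, occur in 19.2% of all windows. Among the members they occur in 5 of the 27 windows (TCF7, TCF7L2, TLE3, GDF10 and SMAD3), and in neither ID gene window. TGACG occurs in 24.6% of all windows and in 8 of the 27 member windows. The TCF and LEF letters CTTTGAT (2.62% of all windows), the GLI letters GACCACCCA (0.236%) and the full cAMP-response element TGACGTCA (1.85%), which contains TGACG, were found in 0 member windows. These matches describe the letters in these windows only, and no binding was measured. Sequence farther from the starts was not searched, so a motif missing here may lie outside the window.

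In the Wnt pathway, a receptor, 2 Dickkopf genes and the co-repressor TLE1 were up-regulated, and TLE3 and TCF7 were down-regulated. FZD7 is a Frizzled receptor for Wnt (ENSG00000155760, chromosome 2, 202034587 to 202038445, GENCODE release 29 on GRCh38). Its level was 6.50, 5.72 and 6.67 CPM in PBS 10, PBS 11 and PBS 12 and 9.04, 10.2 and 9.18 CPM in METH 1, METH 2 and METH 3. Every METH library lay above every PBS library, with means of 6.30 ± 0.503 and 9.46 ± 0.612 CPM (SD, n = 3 each). This gave a log2 fold change of 0.58 (SE 0.212, adjusted p = 0.0563 by limma). Although its replicates lay close together, the call was lost without METH 1 (adjusted p = 0.131) or METH 2 (adjusted p = 0.180).

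The Dickkopf genes encode secreted proteins, of which DKK1 blocks the Wnt co-receptors LRP5 and LRP6. DKK1 (ENSG00000107984, chromosome 10, 52314296 to 52318042) was at 218, 197 and 170 CPM in PBS 10, PBS 11 and PBS 12 and at 313, 355 and 317 CPM in METH 1, METH 2 and METH 3. The groups did not overlap, and the mean rose from 195 ± 24.0 to 328 ± 23.2 CPM (SD, n = 3 each), with a log2 fold change of 0.76 (SE 0.209, adjusted p = 0.0292 by limma). Without METH 2 the adjusted p-value was 0.120. PRKG1-AS1 overlaps DKK1 on the other strand. DKK3, a divergent family member that does not act on LRP6 as DKK1 does, was at 41.2, 77.0 and 60.5 CPM under PBS and 102, 93.6 and 71.6 CPM with METH. METH 3 lay below PBS 11, so the groups overlapped, and the log2 fold change was 0.61 (adjusted p = 0.0806 by limma). DKK3 lost the call without PBS 10 (0.192), PBS 12 (0.145), METH 1 (0.210) or METH 2 (0.197), and when limma was run without a trend (0.104, all adjusted p-values). DKK2, which can raise or lower Wnt signalling depending on its partners, had between 167 and 393 reads per library, and its log2 fold change of 0.46 had a 95% confidence interval from -0.18 to 1.10 (adjusted p = 0.160 by limma). It was called without PBS 10 (adjusted p = 0.0793). Per kilobase of exon, the PBS means were 88.4 CPM for DKK1, 11.8 CPM for DKK3 and 0.601 CPM for DKK2, so DKK1 was the Dickkopf gene with the highest level.

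The TLE genes encode Groucho co-repressors, which bind TCF proteins and also HES proteins to silence target genes. TLE1 (ENSG00000196781, chromosome 9, 81583683 to 81689305) was at 35.6, 36.7 and 42.8 CPM in PBS 10, PBS 11 and PBS 12 and at 84.3, 70.7 and 61.6 CPM in METH 1, METH 2 and METH 3. TLE3 (ENSG00000140332, chromosome 15, 70047790 to 70098176) was at 41.8, 23.5 and 39.0 CPM in the same PBS libraries and at 10.8, 12.9 and 13.4 CPM in the METH libraries. The groups were apart in both genes, in opposite directions. The log2 fold change was 0.90 for TLE1 (SE 0.202, adjusted p = 0.0176 by limma) and -1.45 for TLE3 (SE 0.257, adjusted p = 0.00913 by limma). Both kept the call with any single library left out and when adjusted over 20000 genes (adjusted p = 0.0861 for TLE1 and 0.0445 for TLE3). Per kilobase of exon, the ratio of TLE1 to TLE3 was 2.19, 4.01 and 2.82 in the PBS libraries and 20.1, 14.1 and 11.8 in the METH libraries. These genes were set side by side because they had moved apart, so the ratio is only a description and no p-value is drawn from it. TLE3 has 3 windows in the promoter table, so its reads may come from transcripts of several starts, which gene-level values do not separate.

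The TCF genes encode the DNA-binding proteins through which beta-catenin acts. TCF7 (ENSG00000081059, chromosome 5, 134114711 to 134151865) was at 14.2, 14.4 and 15.7 CPM in the PBS libraries and at 8.56, 9.35 and 8.60 CPM with METH. The groups did not overlap and both were tight, at 14.7 ± 0.814 and 8.83 ± 0.444 CPM (SD, n = 3 each), with a log2 fold change of -0.73 (SE 0.197, adjusted p = 0.0275 by limma). TCF7 stayed past the threshold with any library left out (adjusted p at most 0.0909). It also makes short forms that lack the beta-catenin binding part, and the values do not separate them. Its span overlaps SKP1 on the other strand. TCF7L2 was at 1.80 to 4.34 CPM over the 6 libraries, with a log2 fold change of -0.56 (95% confidence interval -1.36 to 0.23, adjusted p = 0.165 by limma), and was called without PBS 10 (adjusted p = 0.0951).

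**Figure D3:**
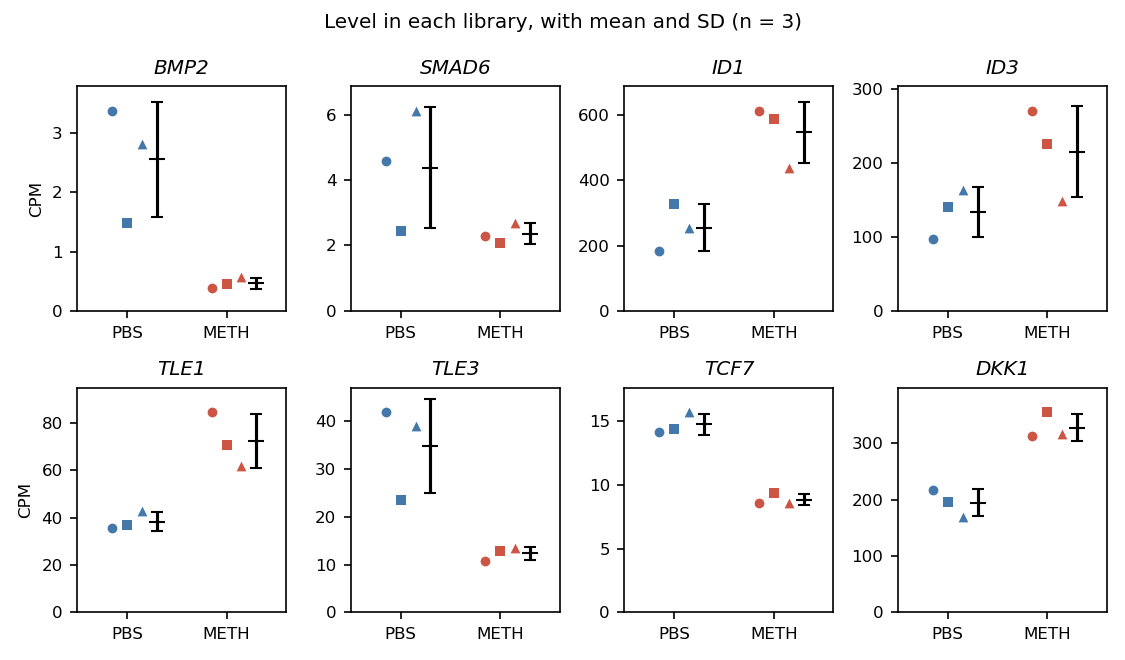
Level in CPM (y axis, from 0) of 8 members in each library, PBS in blue and METH in red, with circle, square and triangle for PBS 10, 11 and 12 and for METH 1, 2 and 3, and the mean and SD beside them in black. TLE1 and TLE3 move in opposite directions with no overlap, whereas SMAD6 and ID3 have METH libraries inside the PBS range.

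Among the BMP, TGF-beta and activin genes, 4 ligands were called, of which 3 fell and 1 rose. BMP2, a BMP ligand with roles in the formation of sympathetic neurons and bone, was down-regulated with no overlap between the groups. BMP2 (ENSG00000125845, chromosome 20, 6767664 to 6780280) was at 3.38, 1.49 and 2.82 CPM in PBS 10, PBS 11 and PBS 12 and at 0.385, 0.451 and 0.570 CPM in METH 1, METH 2 and METH 3. The gene had 374, 129 and 263 reads in the former and 33, 41 and 61 in the latter, so no METH library reached the lowest PBS library. The METH mean was 5.47 times lower, and the log2 fold change was -2.16 (SE 0.365, adjusted p = 0.00875 by limma). With each library left out in turn, its log2 fold change stayed between -2.50 and -1.93 and its adjusted p-value was at most 0.0446.

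GDF10, a distant relative of the BMPs, was close to the detection limit. It had 53, 65 and 23 reads in the PBS libraries and 0, 6 and 3 reads in the METH libraries. Its log2 fold change was -2.11 (SE 0.432, adjusted p = 0.0137 by limma), a size that moves with the pseudocount (-3.90 with a pseudocount of 0.01 and -0.52 with 1), and the call held with any library left out (adjusted p at most 0.0508). INHBA, which encodes the subunit of activin A, was at 6.37, 3.21 and 3.54 CPM in the PBS libraries and at 3.20, 1.50 and 2.18 CPM with METH. The groups were apart by a small margin, between PBS 11 and METH 1, and PBS 10 was well above the rest. Its log2 fold change of -0.90 (SE 0.368, adjusted p = 0.0713 by limma) was no longer called without PBS 10 (0.173), PBS 12 (0.114), METH 2 (0.211) or METH 3 (0.105, all adjusted p-values). INHBA-AS1 overlaps it on the other strand.

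GDF11, a ligand that restrains the production of neurons and signals through SMAD2 and SMAD3, went the other way. GDF11 (ENSG00000135414, chromosome 12, 55743280 to 55757278) was at 16.6, 16.0 and 21.8 CPM in the PBS libraries and at 29.2, 26.8 and 22.4 CPM with METH. METH 3 and PBS 12 were nearest to each other, with no overlap. On the log2 scale the change was 0.53 (SE 0.214, adjusted p = 0.0697 by limma), and the call was lost without PBS 10 (0.111), PBS 11 (0.115), METH 1 (0.197) or METH 2 (0.185, all adjusted p-values). SARNP overlaps GDF11 on the other strand and is itself in the table with a log2 fold change of 0.51 (adjusted p = 0.0868 by limma), and strand-specific counting is not stated. TGFB2 had only 5 to 54 reads per library and was not called, with a 95% confidence interval of its log2 fold change from -0.74 to 1.64. Among the ligands, the PBS mean per kilobase of exon was highest for GDF11, at 2.09 CPM, followed by 0.711 CPM for BMP2 and 0.527 CPM for INHBA.

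The 2 SMAD genes of the table were both called down-regulated, with values that overlapped between groups. SMAD6, the inhibitory SMAD whose promoter is shown above, was at 4.58, 2.44 and 6.11 CPM in PBS 10, PBS 11 and PBS 12 and at 2.30, 2.08 and 2.70 CPM in METH 1, METH 2 and METH 3. PBS 11 lay within the METH range, and the PBS libraries varied more (SD 1.84 CPM) than the METH libraries (SD 0.315 CPM). This came to a log2 fold change of -0.78, with a 95% confidence interval from -1.57 to 0.01 (adjusted p = 0.0868 by limma). Without PBS 11 the adjusted p-value was 0.0231, and without PBS 10 (0.157), PBS 12 (0.236), METH 1 (0.178) or METH 2 (0.205) the gene was not called. SMAD3, which carries the TGF-beta and activin signal, was at 6.09, 3.43 and 5.53 CPM in the PBS libraries and at 3.12, 3.67 and 2.60 CPM with METH. Here too PBS 11 fell within the METH range. The change on the log2 scale was -0.64, with a 95% confidence interval from -1.30 to 0.03 (adjusted p = 0.0914 by limma), and of the fits that left out a library it was called only without PBS 11 (adjusted p = 0.0382), with adjusted p-values of 0.151 to 0.210 without PBS 10, PBS 12, METH 1, METH 2 or METH 3. Both intervals include 0, and these are the highest adjusted p-values of the 15 calls.

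The ID genes encode small proteins that bind and disable bHLH transcription factors, among them those that drive neuron formation. ID1 (ENSG00000125968, chromosome 20, 31605283 to 31606515) was at 182, 328 and 255 CPM in PBS 10, PBS 11 and PBS 12 and at 612, 588 and 438 CPM in METH 1, METH 2 and METH 3. In the fit of all 6 libraries it had the largest increase of the 23 members on the log2 scale, from 255 ± 72.8 to 546 ± 93.8 CPM (SD, n = 3 each), with no overlap. This gave a log2 fold change of 1.12 (SE 0.279, adjusted p = 0.0228 by limma), and the call held with any library left out (adjusted p at most 0.0853) but not when adjusted over 20000 genes (0.111). ID3 was at 97.0, 140 and 164 CPM in the PBS libraries and at 270, 226 and 149 CPM with METH. METH 3 was below PBS 12, so the groups overlapped. The log2 fold change of ID3 was 0.68 (SE 0.290, adjusted p = 0.0780 by limma), and the call was lost without PBS 10 (0.178), METH 1 (0.229) or METH 2 (0.193). ID1 and ID3 had the highest and the third-highest PBS mean per kilobase of exon among the members, at 207 and 74.4 CPM, and DKK1 lay between them. With METH the mean of BMP2 was lower and the means of ID1 and ID3 were higher, with overlapping groups for ID3. A link between these changes was not tested.

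Of the 5 Notch genes, only DLL3 was called. DLL3, unlike the other DLL proteins, stays mainly inside the cell and opposes Notch there, and it is found in neuroendocrine tumours. DLL3 (ENSG00000090932, chromosome 19, 39498895 to 39508481) was at 10.4, 18.5 and 19.6 CPM in PBS 10, PBS 11 and PBS 12 and at 31.9, 28.1 and 20.4 CPM in METH 1, METH 2 and METH 3. METH 3 was just above PBS 12, and the groups did not overlap. Its log2 fold change was 0.76 (SE 0.290, adjusted p = 0.0620 by limma), and the call was lost without PBS 10 (0.125), METH 1 (0.175) or METH 2 (0.161). The receptor NOTCH2 was at 10.4, 5.76 and 8.69 CPM under PBS and 5.17, 6.05 and 6.70 CPM with METH, with a log2 fold change of -0.43 (95% confidence interval -1.05 to 0.19, adjusted p = 0.168 by limma). It was called without PBS 11 (adjusted p = 0.0563). NOTCH2 has near-identical partial copies in the NOTCH2NL genes, so the origin of its reads is uncertain.

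The Notch target genes HES1, HES7 and HEY1, which encode bHLH repressors, did not share a direction, and none was called. HES1, whose promoter with 2 copies of the RBPJ letters is shown above, was at 5.88, 14.4 and 6.71 CPM in the PBS libraries and at 5.23, 5.65 and 5.09 CPM with METH. All METH libraries were below all PBS libraries, but PBS 11 was more than the sum of the other two. On the log2 scale the change was -0.63, with a 95% confidence interval from -1.39 to 0.13 (adjusted p = 0.121 by limma), and was -0.24 without PBS 11. HES1 was called without PBS 10 (adjusted p = 0.0611), with scaling to the same median ratio (0.0922), and by edgeR (0.0917) or DESeq2 (0.0681) on the recovered reads. HEY1 was at 17.4, 17.5 and 15.8 CPM in the PBS libraries and at 28.7, 20.8 and 19.6 CPM with METH, again without overlap but in the other direction. Its log2 fold change was 0.43 (95% confidence interval -0.06 to 0.91, adjusted p = 0.109 by limma), and edgeR called it (adjusted p = 0.0965). HES7 was at 2.17, 7.51 and 8.02 CPM under PBS and 10.6, 9.62 and 4.52 CPM with METH. Its log2 fold change of 0.59 (adjusted p = 0.292 by limma) rests on the low PBS 10, and was -0.0078 without it.

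GLI2, the transcription factor that carries most of the activating Hedgehog signal, was the only Hedgehog gene. It had 92, 59 and 93 reads in the PBS libraries and 17, 187 and 52 reads in the METH libraries. METH 2 was above and METH 1 and METH 3 were below all PBS libraries. The mean was 0.836 CPM under PBS and 0.914 CPM with METH, while the log2 fold change was -0.36 (95% confidence interval -1.78 to 1.06, adjusted p = 0.587 by limma), so the direction depends on the scale.

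**Figure D4:**
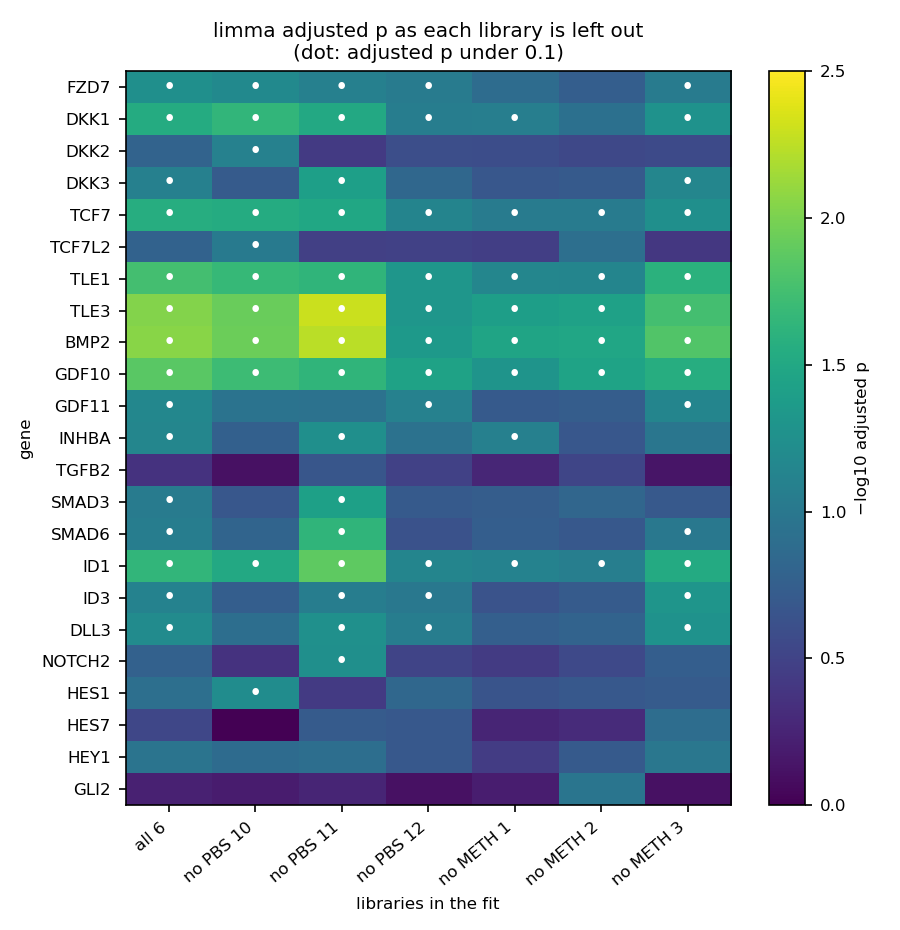
limma adjusted p-value of each member (y axis) in the fit of all 6 libraries and in the fits that each left out 1 library (x axis), as -log10 on the colour scale, with a white dot where it is under 0.1. TCF7, TLE1, TLE3, BMP2, GDF10 and ID1 carry a dot in every column.

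Of the 15 called members, TCF7, TLE1, TLE3, BMP2, GDF10 and ID1 were called in all 6 fits that left out a library. The number called up-regulated went from 8 to 2 without METH 2, to 3 without METH 1 and to 5 without PBS 10. The number called down-regulated went from 7 to 4 without METH 2 or PBS 12. Leaving out a library leaves less data for every gene, and the share of all 4101 genes called in these fits was not counted. These drops are therefore not read as particular to the members. The libraries PBS 10 and METH 3 lay low together in many of the genes that rose. In 6 of the 12 members with a positive log2 fold change, PBS 10 was the lowest PBS library and METH 3 the lowest METH library, and over the table this held for 1009 of 2066 such genes (48.8%). It held in 2 of the 11 members with a negative log2 fold change, and for 453 of 2035 such genes of the table (22.3%). The denominators of the libraries were 85.7 M to 111 M reads, of which 20027072 to 25449507 fell on the 4101 genes. The summed level of these genes was 192856 CPM in METH 3 and 229751 to 243343 CPM in the other libraries.

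Other components of the pathways were taken from lists drawn up from general knowledge. Of 181 genes on these lists, 46 are in the table, of which 15 were up-regulated, 13 were down-regulated and 18 were not called. With adjustment over 20000 genes, 3 of the 46 stayed called, namely ATOH8, LFNG and SCUBE1, all down-regulated. The share called among these 46 genes was somewhat below the 69.1% of the table. With so few genes it is not read as a result about the pathways. Among Wnt components, 16 of 65 listed genes were in the table, with 1 up-regulated and 6 down-regulated. BCL9L, a co-activator of beta-catenin, rose from 5.83 ± 1.22 to 10.2 ± 0.512 CPM (SD, n = 3 each; log2 fold change 0.82, adjusted p = 0.0312 by limma). MYC, a well-known beta-catenin and Notch target that many other signals also control, fell from 42.6 ± 20.6 to 12.1 ± 3.71 CPM (log2 fold change -1.69, adjusted p = 0.0219 by limma). Its groups were nearest at 18.8 CPM in PBS 11 and 16.4 CPM in METH 3, while PBS 10 and PBS 12 were at 54.8 and 54.3 CPM. TNFRSF19, a receptor that is a Wnt target, had a log2 fold change of -1.21 (adjusted p = 0.0367 by limma), and RSPO1, which encodes an R-spondin that strengthens Wnt signals, one of -1.22 (adjusted p = 0.0619 by limma) at 0.727 ± 0.318 CPM under PBS and with overlapping groups. Of these, MYC was called with any library left out. BCL9L was lost by a small margin without METH 2, TNFRSF19 without METH 1 (0.107) or METH 2 (0.121) and RSPO1 without PBS 10 (0.136) or METH 1 (0.183).

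Among BMP and TGF-beta components, 11 of 47 were in the table, with 6 up-regulated and 3 down-regulated. ATOH8, a bHLH gene that BMP signalling induces in several cell types, fell from 0.695 ± 0.204 to 0.121 ± 0.0276 CPM (log2 fold change -1.82, adjusted p = 0.0108 by limma). BAMBI, a decoy receptor that is itself induced by BMP and Wnt signals, fell from 79.7 ± 26.8 to 41.9 ± 6.83 CPM (log2 fold change -0.89, adjusted p = 0.0364 by limma). MSX2, also a BMP target, went the other way. It rose from 13.4 ± 2.60 to 22.1 ± 3.06 CPM without overlap (log2 fold change 0.73, adjusted p = 0.0391 by limma), so the listed BMP targets did not share a direction. The co-repressor TGIF2 fell by 0.61 on the log2 scale (adjusted p = 0.0745 by limma) and its relative TGIF1 rose by 0.96 (adjusted p = 0.0550 by limma). GREM1, a secreted BMP antagonist, rose from 0.132 ± 0.120 to 0.561 ± 0.0588 CPM (log2 fold change 1.68, adjusted p = 0.0304 by limma), with 0 reads in PBS 12 and at most 58 reads in any library. AMHR2, the receptor of anti-Müllerian hormone, had a log2 fold change of 1.37 (adjusted p = 0.0386 by limma). ATOH8, BAMBI and GREM1 were called with any library left out. AMHR2 was lost without METH 1 (adjusted p = 0.113) or METH 2 (0.121), TGIF1 without PBS 10 (0.105), METH 1 (0.163) or METH 2 (0.135), and TGIF2 without PBS 12 (0.189) or any METH library (0.106 to 0.174).

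Among Notch components, 11 of 41 were in the table, with 5 up-regulated and 3 down-regulated. LFNG, the Fringe enzyme that adds sugars to Notch and is also a Notch target, fell from 4.41 ± 1.21 to 1.49 ± 0.389 CPM (log2 fold change -1.51, adjusted p = 0.0150 by limma). POFUT1, which adds the fucose that Fringe extends, fell from 19.0 ± 1.62 to 12.2 ± 1.14 CPM (log2 fold change -0.63, adjusted p = 0.0388 by limma). RFNG, another Fringe gene, had a log2 fold change of 0.70 (adjusted p = 0.0853 by limma) with overlapping groups. The co-activator MAML2 had a log2 fold change of 0.93 (adjusted p = 0.0422 by limma) and CIR1, a co-repressor that binds RBPJ, one of 0.93 (adjusted p = 0.0236 by limma). LFNG and CIR1 were called with any library left out. POFUT1 was lost without METH 1 (adjusted p = 0.106) or METH 2 (0.150), MAML2 without METH 2 (0.137), and RFNG without PBS 10, PBS 12, METH 1 or METH 2 (0.149 to 0.215), with limma without trend (0.108) and with edgeR (0.103).

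Among Hedgehog components, 9 of 33 were in the table, with 3 up-regulated and 2 down-regulated. SCUBE1, a secreted protein of the family that helps to release Hedgehog, fell from 1.25 ± 0.346 to 0.294 ± 0.232 CPM (log2 fold change -1.90, adjusted p = 0.0198 by limma). The co-receptor BOC rose from 4.20 ± 0.672 to 8.26 ± 2.89 CPM (log2 fold change 0.92, adjusted p = 0.0422 by limma), and GPC3, a glypican that competes for Hedgehog, rose from 11.8 ± 1.74 to 20.6 ± 1.42 CPM (log2 fold change 0.81, adjusted p = 0.0236 by limma). The ligand DHH, at 0.176 and 0.510 CPM under PBS and METH, had a log2 fold change of 1.17 (adjusted p = 0.0339 by limma), and the kinase STK36 one of -0.57 (adjusted p = 0.0938 by limma) with overlapping groups. SCUBE1 and GPC3 were called with any library left out. BOC was lost without METH 1 (adjusted p = 0.143) or METH 2 (0.111), DHH without METH 2 (0.112), and STK36 in each of these fits except the one without METH 1 (0.112 to 0.231), with limma without trend (0.104) and with edgeR (0.103).

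**Figure D5:**
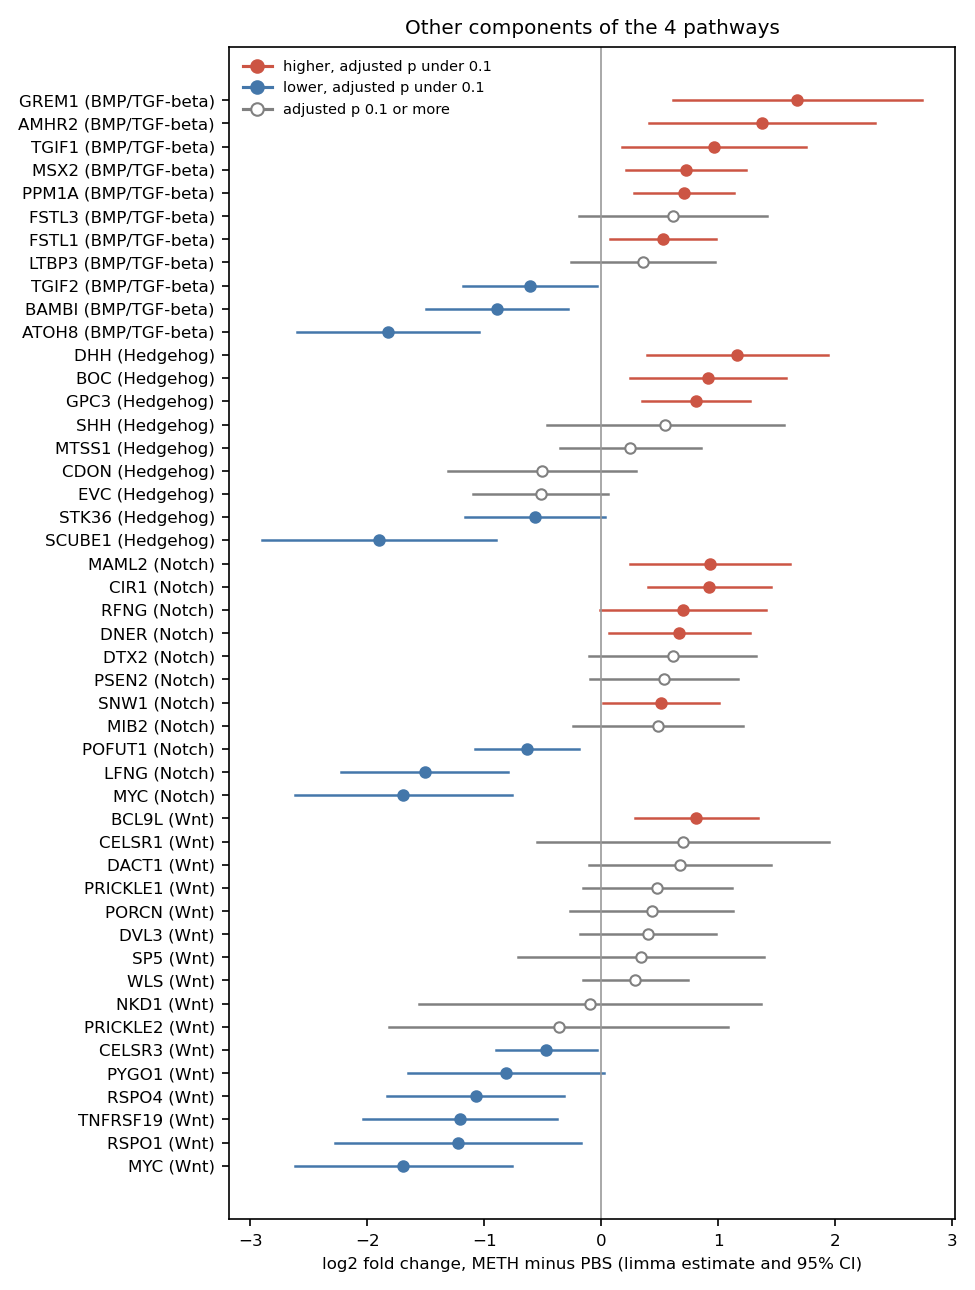
The log2 fold change (x axis, METH minus PBS) with its 95% confidence interval of the 46 genes of the table that belong to the lists of other pathway components, by list, with MYC shown in both the Wnt and the Notch list. Red filled points were up-regulated (15 genes), blue filled points down-regulated (13 genes) and open grey points not called (18 genes).

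Some cell identity markers were called in these libraries too, and their calls are read against the 69.1% called over all genes of the table. Of 16 sympathetic neuroblastoma markers, 8 are in the table and none of these is at 0 in any library. Their summed level was 926 to 1038 CPM under PBS and 903 to 1012 CPM with METH. Of the 8, 5 were down-regulated, with HAND1, GATA2 and ELAVL4 among them, TBX2 and CHGB were up-regulated and 1 was not called. Of 16 mesenchymal or Schwann-like markers, 5 are in the table. FOSL1, FOSL2, SNAI2 and VIM were up-regulated, and TWIST1 was not called (adjusted p = 0.182 by limma). Their summed level was 459 to 752 CPM under PBS and 811 to 1182 CPM with METH, most of it from VIM and TWIST1, which neuroblastoma cells express as well. CD14 was the only 1 of 9 blood and endothelium markers in the table, and was called up-regulated at a level of at most 0.525 CPM. In bulk RNA, fewer cells of a type and less RNA per cell cannot be told apart, and the part of these markers in the changes of the signalling genes was not tested.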

How the data were processed

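Per the labels and the study's methods, mRNA of 6 SH-SY5Y libraries was sequenced (SMARTER mRNA-Seq kit, HiSeq) and compared by the authors with DESeq2. The aligner, counter, genome build and strand setting are not given in the sources used here. The deposited columns are headed FPKM, but the values of a column are multiples of the same step whatever the gene, so the deposited values are CPM. Within 0.00055 CPM, 99.976% of the values of PBS 12 and 100% of those of the other libraries came out as whole reads. The table also holds the authors' mean columns, fold changes and p-values. The deposited p-values were used only to count that all 4101 genes were under 0.1, and the adjustment within the table is therefore lenient.

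Differences were tested with limma 3.58.1 (R 4.3.3, eBayes with trend) on log2(CPM + 0.1). P-values of the 4101 genes were adjusted by the Benjamini-Hochberg method, and the threshold was 0.1. A fold change on this scale understates the change of genes with low levels. Intervals are 95% confidence intervals of the mean METH minus PBS difference on the log2 scale, and rest on the spread between libraries. The script was tested on simulated data with known changes. Alternatives were a pseudocount of 1 or 0.01, a minimum mean of 1 CPM, limma without trend, median-ratio scaling, a threshold of 0.05, adjustment over 20000 genes, edgeR 4.0.16 and DESeq2 1.42.0 on recovered reads, and each library left out.

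Members and lists were chosen with earlier results of these data known. Full values are given for called members without overlap and a mean of at least 0.5 CPM in either group, and for FZD7. Values by library for the other members were chosen after they were seen. Listed components are named if called, for each list up to 3 in each direction with the largest changes and a mean of at least 0.5 CPM in either group. MSX2 is named in addition because it moved against ATOH8 and BAMBI, without its values in the alternative fits. Gene positions and exon lengths are from GENCODE release 29, and promoters from RefSeq. Values of some marker genes are not reported here.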

Additional observations from a re-analysis of the deposited data

How the results depend on the processing

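The members called up-regulated numbered 8 and those down-regulated 7. At a threshold of 0.05 these were 3 and 4, and with adjustment over 20000 genes 1 and 3. With a library left out, 2 to 8 were up-regulated and 4 to 8 down-regulated, with the fewest up-regulated without METH 2. The adjustment over 20000 genes called 10.0% of the table. The share of the table called at 0.05 or with a library left out was not counted, so whether the members lost more calls than other genes is not known. The pseudocount changed no member's call, limma without trend changed 1, median-ratio scaling 1, DESeq2 1 and edgeR 2. On the recovered reads edgeR called 2730 and DESeq2 2872 of the 4101 genes, against 2833 by limma. The direction turned for 3 members that were not called. Without PBS 10, the log2 fold change was -0.13 for TGFB2 and -0.0078 for HES7, and with any single library left out it ranged up to 0.80 for TGFB2 and 0.97 for HES7. GLI2 had 0.13 by edgeR and by DESeq2, and with a library left out it ranged from -1.15 without METH 2 to 0.28 without METH 1. The cause was not tested. No paired analysis was possible because PBS libraries 10 to 12 and METH libraries 1 to 3 carry no shared number. GDF10, TGFB2 and GLI2 rest on few reads, and their changes are imprecise. Of the listed components, RSPO1, ATOH8, SCUBE1 and DHH had as few as 8, 9, 13 and 12 reads in a library. With pseudocounts of 0.01 and 1, the log2 fold change was -2.41 and -0.59 for ATOH8, -2.27 and -0.80 for SCUBE1, and 1.54 and 0.36 for DHH.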
